A study of Mus musculus with 8 samples.

Results

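The T cell receptor (TCR) beta locus was read out through the 53 rows of the count table whose symbol begins with Trbv, Trbd, Trbj or Trbc, out of 39056 rows in all. They comprise 35 variable (V), 2 diversity (D), 14 joining (J) and 2 constant (C) segments, and were found by matching the Ensembl identifiers to GENCODE M21, with 53 of 53 identifiers matching including the version. The choice used symbols alone and no measured value. RNA came from CD4+ T cells sorted from spleen and lymph nodes, pooled, of C57BL/6J mice that had been given bone marrow progenitors of genotype CD4-Cre TCRβtg Tcra-/-. These progenitors had been transduced with a retrovirus that encodes the SAS TCRα chain (4 libraries, replicates 1, 2, 3 and 6) or the ANT TCRα chain (4 libraries, replicates 1, 3, 4 and 5). Both groups therefore share the Cre transgene, the beta chain transgene and the loss of endogenous Tcra, and differ in the alpha chain supplied. The labels give neither the V, D and J segments of the beta transgene nor its promoter, and do not state the age of the mice, how many were pooled for a library or which cells of its own a recipient retained. The transgene's segments being unnamed there, no row is called transgenic below. Nor is it stated that each library is a separate mouse or pool, and the p-values rest on a spread between libraries that may in part be technical.

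The beta chain of the receptor is assembled in thymocytes by joining a V, a D and a J segment, and splicing then attaches the assembled exon to a constant gene. In the mouse a pair of D-J-C clusters lies downstream of nearly all V segments: Trbd1, the Trbj1 segments and Trbc1 come first, followed by Trbd2, the Trbj2 segments and Trbc2. Trbv31 lies beyond Trbc2 on the opposite strand. A productively rearranged beta gene, including a transgene, usually keeps the other V segments from rearranging, which is called allelic exclusion. Transcripts that start within the unrearranged D-J-C clusters are also known in T cells.

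Libraries held 27600959 to 31810799 counts, of which 155212 to 313668 belonged to the TCR beta rows. Levels are counts per 1000000 (CPM) of the library size scaled by TMM, and log2 differences are log2 of SAS over ANT, with their standard error (SE). Adjusted p-values are from edgeR's quasi-likelihood test with Benjamini-Hochberg adjustment over all genes tested, and a row is called at 0.05. Within ANT, replicates 1 and 3 stood apart from replicates 4 and 5: the chi-square per degree of freedom of their counts over genes was 10.65 between replicates 1 and 3 and 21.95 between replicates 4 and 5, but 101.8 to 138.8 across, and 25.4 to 95.1 between SAS libraries. Cd4 and the CD3 chains were present in every library. Marker lists for other cells were summed per library. Of all genes tested, 19.8% were higher and 17.7% lower in SAS. CD8 T cell genes summed to 1.99 to 4.49 CPM in SAS and 14.1 to 66.8 CPM in ANT libraries (1 of 2 tested lower in SAS, Cd8b1). Natural killer genes summed to 0.365 to 0.701 CPM in SAS and 9.3 to 21.1 CPM in ANT libraries (only Klrd1 of 3 was tested, and was lower in SAS, with Ncr1 at 0). Of the B cell genes, Ighm averaged 150 CPM in SAS and 665 CPM in ANT libraries and was lower in SAS, while Cd79a, Cd79b and Ms4a1 each averaged under 1 CPM in both clones. Myeloid genes summed to 1.76 to 5.33 CPM in SAS and 0.588 to 1.17 CPM in ANT libraries (2 of 4 tested, 1 higher in SAS, Itgam). Invariant NKT genes summed to 0.675 to 1.82 CPM in SAS and 0 to 0.138 CPM in ANT libraries (only Klrb1c of 2 was tested, and was higher in SAS). Erythroid genes summed to 0.803 to 4.63 CPM in SAS and 0.69 to 9.69 CPM in ANT libraries (0 of 2 called). Of the 4 gamma delta genes only Trdc was matched, at 354 to 435 CPM in SAS and 415 to 550 CPM in ANT libraries, not called. The listed symbols Trgc1, Trgc2 and Trgc4 matched no symbol of GENCODE M21, so counts of these genes were not read. The part of these cells in the results below was not tested, and in bulk RNA fewer cells of a type and less RNA per cell cannot be told apart.

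The segments on which the results turn are shown first, since a J segment is so short that its counts are reads that overlap a stretch of 46 to 54 bases. The following J segments are from GENCODE M21 transcripts on the plus strand of mm10, and capitals mark TTNGG, any 4 bases and GG, letters that include the codons of the conserved phenylalanine-glycine motif and occur on the plus strand of 11 of the 14 J segments. Trbj1-3 and Trbj1-5 had the most counts of their cluster, Trbj1-1 and Trbj1-2 were the J segments that passed the test, and Trbj2-7 and Trbj2-1 had the most counts of the other cluster.
Trbj1-1, chr6:41533864-41533911: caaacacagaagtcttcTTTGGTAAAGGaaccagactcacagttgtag
Trbj1-2, chr6:41534001-41534048: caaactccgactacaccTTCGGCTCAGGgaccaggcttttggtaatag
Trbj1-3, chr6:41534323-41534372: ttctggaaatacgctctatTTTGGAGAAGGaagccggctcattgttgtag
Trbj1-5, chr6:41535084-41535133: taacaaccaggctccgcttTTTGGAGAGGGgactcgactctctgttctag
Trbj2-1, chr6:41542754-41542803: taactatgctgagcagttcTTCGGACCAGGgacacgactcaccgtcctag
Trbj2-7, chr6:41543810-41543856: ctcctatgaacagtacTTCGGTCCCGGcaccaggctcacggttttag
The D segments are the 12 bases gggacagggggc (Trbd1, chr6:41533201-41533212) and the 14 bases gggactgggggggc (Trbd2, chr6:41542163-41542176).

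For the 5 V segments with the most counts, the last 60 bases before the junction are shown, with capitals for TGTGCCAGC, letters that begin with the codon of the conserved cysteine and occur on the coding strand in the last 60 bases of 17 of the 35 V segments.
Trbv26, chr6:41227934-41227993: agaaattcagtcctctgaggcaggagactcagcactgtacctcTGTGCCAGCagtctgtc
Trbv13-1, chr6:41116409-41116468: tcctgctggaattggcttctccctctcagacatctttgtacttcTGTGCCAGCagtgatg
Trbv12-2, chr6:41119305-41119364: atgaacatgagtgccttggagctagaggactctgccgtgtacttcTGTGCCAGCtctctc
Trbv12-1, chr6:41114008-41114067: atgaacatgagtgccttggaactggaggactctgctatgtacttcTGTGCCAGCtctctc
Trbv13-2, chr6:41121773-41121832: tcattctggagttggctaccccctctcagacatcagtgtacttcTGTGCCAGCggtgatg
All 5 lie on the plus strand. Trbv26 shared no window of 50 bases with any other gene's transcripts. Trbv12-1 and Trbv12-2 were 87.5% identical and Trbv13-1 and Trbv13-2 81.9%, and neither pair shared a window of 50 bases, while Trbv12-2 shared 4 such windows with Trbv12-3.

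One V segment carried nearly all V counts in both clones. Trbv26 (ENSMUSG00000076479.3, chr6:41227505-41227993) took 95.8%, 94.9%, 95.6% and 95.4% of V counts in SAS replicates 1, 2, 3 and 6, against 96.0%, 95.6%, 95.5% and 94.8% in ANT replicates 1, 3, 4 and 5. The clones overlapped. Counting error (95% Wilson interval) was at most 0.176 percentage points either way. The SAS mean of 95.4% ± 0.399 and the ANT mean of 95.5% ± 0.515 (SD, n = 4 each) differed by −0.08 points (two-sided exact permutation p = 0.771, also 0.771 adjusted over 3 shares; the smallest p such a test can give is 0.0286). Intervals cover counting error only, since reads without molecular identifiers are not independent molecules.

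The level of Trbv26 itself varied from library to library in both clones. It stood at 3305, 2521, 1785 and 3045 CPM in SAS replicates 1, 2, 3 and 6, against 3428, 2647, 2679 and 2018 CPM in ANT replicates 1, 3, 4 and 5. SAS replicate 3 was the lowest library and ANT replicate 1 the highest, a 1.92-fold range, and each clone had high and low libraries. Its log2 difference was −0.02 with a 95% interval of −0.49 to 0.45 (edgeR, adjusted p = 0.962). Differences of either sign within that interval remain compatible with these counts. Per kilobase of exon, Trbv26 averaged 7259 CPM in SAS and 7338 CPM in ANT. The next V segment, Trbv13-1, averaged 182.7 CPM per kilobase in SAS and 144.4 CPM per kilobase in ANT.

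**Figure D1:**
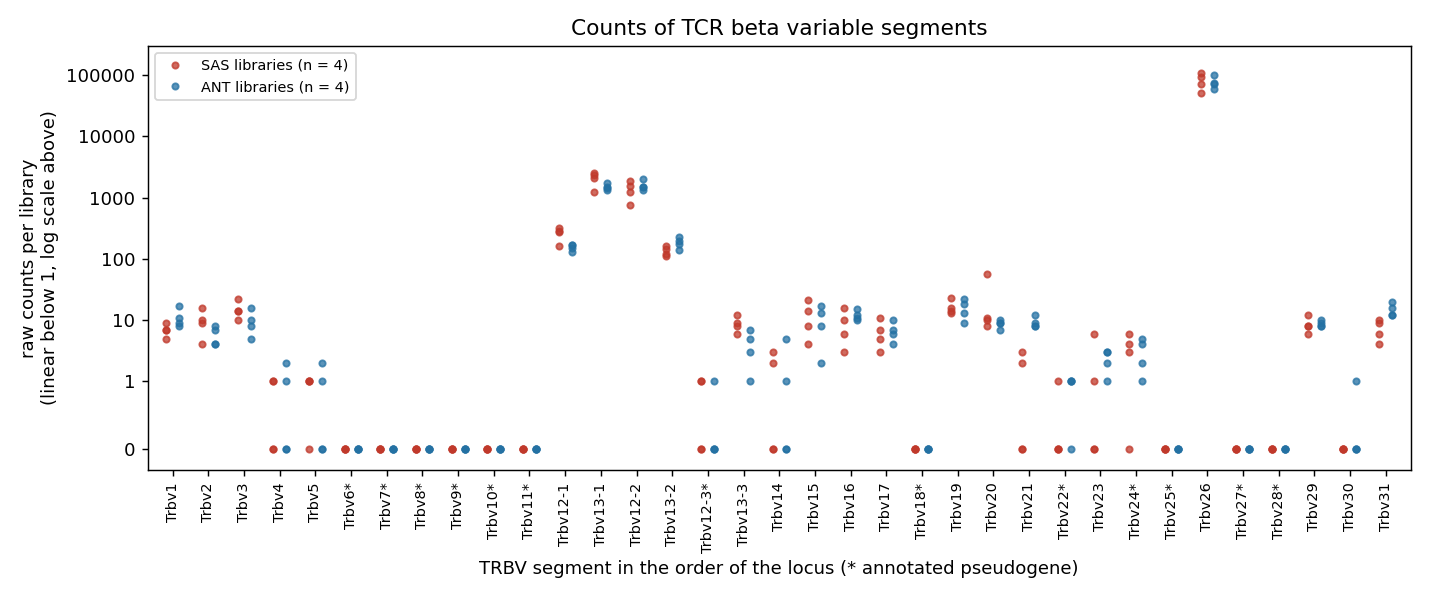
Raw counts of the 35 V segments in each library, in locus order, on an axis that is linear below 1 and logarithmic above; red points are the 4 SAS libraries and blue points the 4 ANT libraries. Trbv26 stands far above the rest, followed by the neighbours Trbv12-1, Trbv13-1, Trbv12-2 and Trbv13-2, and 10 annotated pseudogenes lie at 0 in every library.

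What remained of the V counts came almost entirely from 4 adjacent segments. V counts outside Trbv26 summed to 4739, 3887, 2412 and 4627 in SAS replicates 1, 2, 3 and 6, against 4173, 3298, 3466 and 3242 in ANT replicates 1, 3, 4 and 5. In scaled units this was 128 ± 30.4 CPM in SAS and 126 ± 13.5 CPM in ANT (SD, n = 4 each), sums over segments for which no test was made. Without SAS replicate 3, the lowest library, the means were 143 CPM in SAS and 126 CPM in ANT, so that the closeness of the clones rests on that library. The block from Trbv12-1 to Trbv13-2 (chr6:41113550-41121832, 8.28 kb) held 97.2%, 97.3%, 94.0% and 97.0% of these counts in SAS and 97.0%, 95.3%, 97.3% and 95.9% in ANT, with Wilson intervals at most 0.95 points either way.

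The middle pair of the block, Trbv13-1 and Trbv12-2, gave most of its counts. Trbv13-1 stood at 70.9, 74.1, 42.4 and 80.0 CPM in SAS replicates 1, 2, 3 and 6, against 59.0, 48.9, 54.6 and 48.8 CPM in ANT replicates 1, 3, 4 and 5. Its neighbour Trbv12-2 stood at 56.5, 43.4, 26.4 and 49.7 CPM in SAS, against 69.9, 54.8, 54.2 and 45.9 CPM in ANT. SAS replicate 3 was the lowest library for both. Neither passed edgeR's test. Trbv13-1 had a log2 difference of 0.34 (with SE 0.18 and adjusted p = 0.164) and Trbv12-2 of −0.35 (with SE 0.22 and adjusted p = 0.227). Without SAS replicate 3, Trbv13-1 was called (log2 difference 0.51, adjusted p = 0.00865). With a block for replicate number, Trbv12-2 was called (log2 difference −0.67, edgeR adjusted p = 1.11e-05) and Trbv13-1 was not (0.03, adjusted p = 0.873). That block takes the difference from replicates 1 and 3 alone, the only numbers found in both clones. No pairing by number is stated in the sources used here. As a share of V counts, Trbv12-2 took 1.64%, 1.63%, 1.41% and 1.56% in SAS, against 1.96%, 1.98%, 1.94% and 2.16% in ANT, without overlap. Counts of Trbv13-1 per count of Trbv12-2 were 1.25, 1.71, 1.61 and 1.61 in SAS and 0.844, 0.893, 1.01 and 1.06 in ANT. Every SAS library lay above every ANT library in this ratio, and a ratio taken within a library does not depend on its scaling. The share and the ratio were chosen after their values were seen, and are given as a description without a test.

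**Figure D2:**
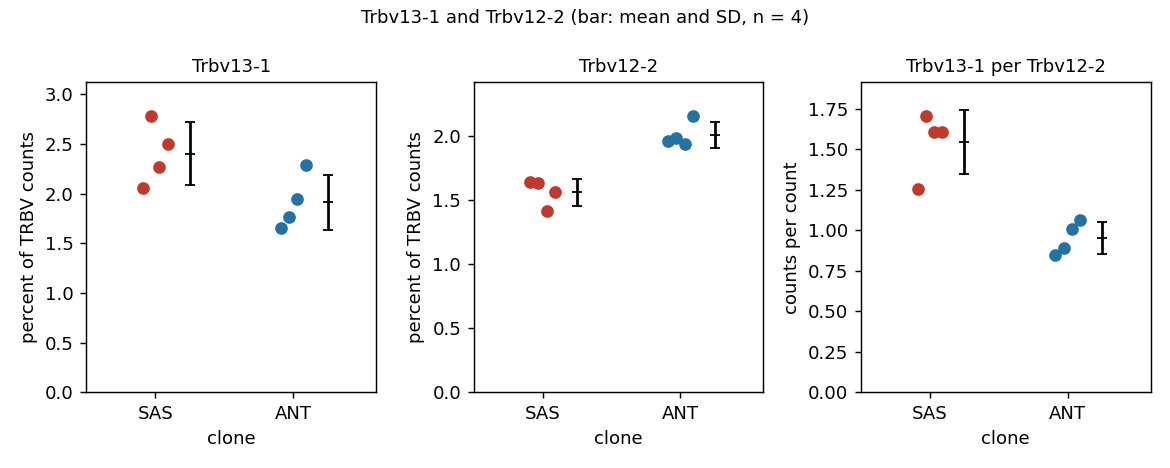
Trbv13-1 and Trbv12-2 as percent of V counts, and their ratio, in each SAS and ANT library (points), with the mean and SD of 4 libraries beside them. The ratio lies between 1.25 and 1.71 in SAS and between 0.844 and 1.06 in ANT.

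Of the 10 V segments tested 3 were called, against 37.4% of all genes tested, 1 of them higher and 2 lower in SAS. Those called were the outer members of the block, which were scarcer and moved in opposite directions, and Trbv31. Trbv12-1 had 8.44, 11.04, 5.56 and 9.19 CPM in SAS replicates 1, 2, 3 and 6, against 5.86, 5.44, 4.58 and 5.89 CPM in ANT replicates 1, 3, 4 and 5. Only SAS replicate 3 fell into the ANT range. Trbv12-1 was higher in SAS by 0.65 on the log2 scale (with SE 0.21 and adjusted p = 0.0312). The call was lost without ANT replicates 3 or 4 or SAS replicates 1, 2 or 6, each left out in turn (adjusted p 0.0581 to 0.0844). Trbv13-2 had 4.45, 4.14, 3.90 and 5.24 CPM in SAS and 4.79, 6.36, 8.15 and 6.62 CPM in ANT. It was lower in SAS (log2 difference −0.55 with SE 0.19, adjusted p = 0.0458), and this call was lost without ANT replicates 3, 4 or 5 or SAS replicates 1, 2 or 3 (adjusted p 0.0758 to 0.125), with library-size scaling (adjusted p = 0.0987) and without ANT replicates 4 and 5 (log2 difference −0.35, adjusted p = 0.217).

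The other 30 V segments together had 104 to 145 counts in a SAS library and 93 to 156 in an ANT library, or 0.118% to 0.268% of V counts in SAS and 0.120% to 0.214% in ANT. Of the 35 V segments 25 had at least 1 count somewhere. The 10 without a count (Trbv6 to Trbv11, Trbv18, Trbv25, Trbv27 and Trbv28) are all annotated as pseudogenes, out of 13 so annotated. A count of 0 allows up to 3 counts, or 0.0914 to 0.11 CPM in a library. In each library 18 to 24 V segments had a count and 8 to 13 had at least 10.

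Among these scarce segments Trbv31, the V segment beyond Trbc2, was lower in SAS. It had 10, 6, 4 and 9 counts in SAS replicates 1, 2, 3 and 6, against 12, 16, 12 and 20 counts in ANT replicates 1, 3, 4 and 5, without overlap in CPM, as for 38.1% of all genes tested (log2 difference −1.15 with SE 0.35, adjusted p = 0.0263). The call was lost without ANT replicates 3 or 5 or SAS replicates 2 or 3 (adjusted p 0.0563 to 0.0736). DESeq2 did not call it (adjusted p = 0.0627), nor did edgeR without the low-count filter (0.0987) or with the replicate block (0.1375). The edgeR adjusted p was 0.081 without ANT replicates 1 and 3, and 0.102 without ANT replicates 4 and 5. Trbv19 had 16, 13, 14 and 23 counts in SAS and 18, 22, 9 and 13 in ANT, and Trbv3 had 14, 14, 10 and 22 counts in SAS and 5, 16, 10 and 8 in ANT, neither of them called (adjusted p = 0.969 and 0.372). Trbv15 and Trbv16, the last of the 10 V segments tested, were not called either (adjusted p = 0.889 and 0.360). Trbv20 had 56 counts in SAS replicate 3 and 7 to 11 in each of the other 7 libraries, and did not pass the low-count filter. Trbv21, picked out after its values were seen and also below that filter, had 0, 3, 2 and 0 counts in SAS and 12, 9, 8 and 8 in ANT, and was called where the filter was dropped.

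The other 26 genes annotated within the same interval (chr6:40891229-41558452, 667 kb), among them trypsinogen genes between the V and D segments, were nearly silent, and 20 of them had no count. Prss2, the last before Trbd1, had 16, 22, 11 and 18 counts in SAS and 9, 10, 3 and 3 in ANT (log2 difference 1.30, adjusted p = 0.0445).

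Counts over the J segments were spread much more widely than those over V segments. Trbj2-7 led, with 31.3%, 27.6%, 17.2% and 32.3% of J counts in SAS replicates 1, 2, 3 and 6, against 27.1%, 23.8%, 23.1% and 21.6% in ANT replicates 1, 3, 4 and 5. The SAS mean of 27.1% ± 6.88 and the ANT mean of 23.9% ± 2.32 (SD, n = 4 each) differed by 3.21 points, within the spread between libraries (two-sided exact permutation p = 0.429, 0.771 adjusted over 3 shares). The difference was 6.50 points without SAS replicate 3 (exact permutation p = 0.0571), 1.81 points without SAS replicate 1 and 1.49 points without SAS replicate 6. With 3 against 4 libraries, p = 0.0571 is the smallest that this permutation test can give. The test without SAS replicate 3 therefore could not reach the threshold used for calls, and its p is not a near miss. SAS replicate 3 had the lowest share and the other 3 SAS libraries the highest. Wilson intervals were at most 0.741 points either way.

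**Figure D3:**
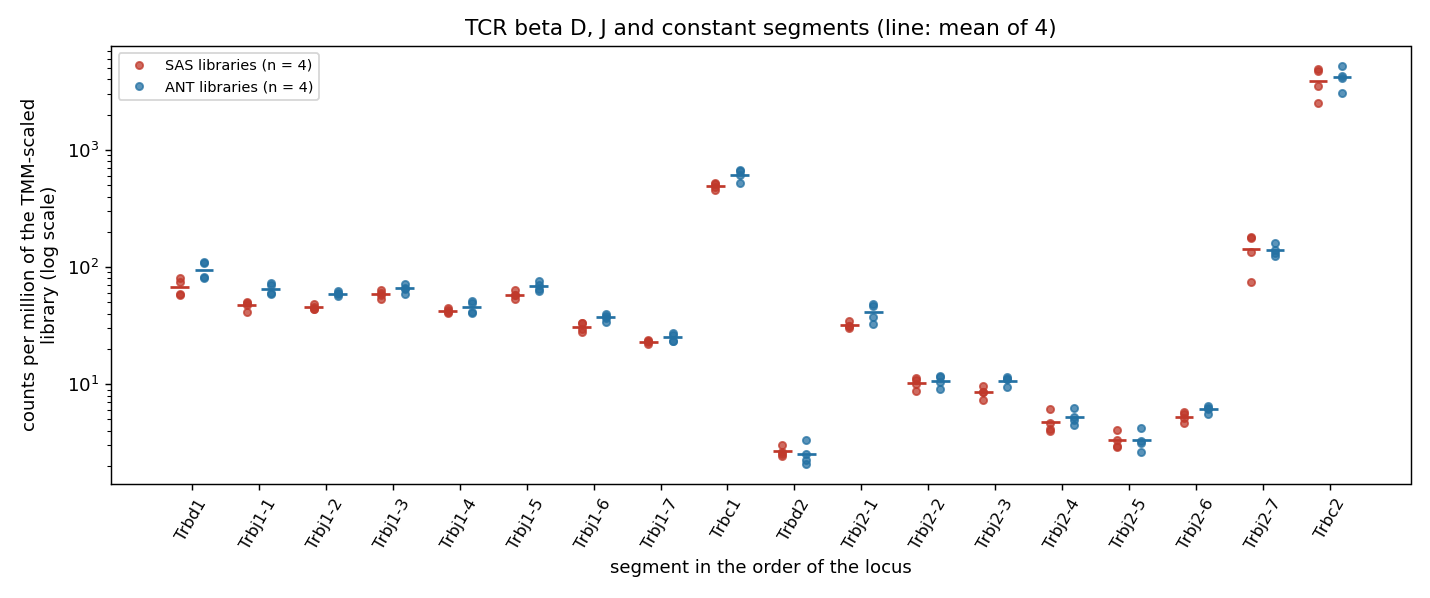
Levels of the D, J and constant segments in locus order, in CPM on a log axis; points are libraries (red SAS, blue ANT) and lines the means of 4. Trbj2-7 and Trbc2 spread widely within each clone, whereas the Trbj1 segments lie close together and mostly lower in SAS.

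The 7 Trbj1 segments, which lie with Trbd1 within 2.49 kb, held 56.9%, 59.4%, 69.1% and 55.8% of J counts in SAS and 59.7%, 61.5%, 64.1% and 66.2% in ANT. Their summed level was 326, 291, 299 and 307 CPM in SAS, against 354, 364, 367 and 385 CPM in ANT, without overlap. The sum was not tested, and 38.1% of all genes tested did not overlap. The TMM factors, by which library totals are multiplied, were 1.01 to 1.06 in SAS and 0.959 to 0.979 in ANT. They widen this gap. Each of the 7 had a negative log2 difference, and 2 passed the test, where 17.7% of all genes tested were lower in SAS. Trbj1-1, the J segment nearest Trbd1, had 49.4, 41.3, 50.3 and 47.9 CPM in SAS replicates 1, 2, 3 and 6, against 73.4, 70.2, 59.4 and 59.7 CPM in ANT replicates 1, 3, 4 and 5. SAS was lower by a log2 difference of −0.48 (with SE 0.11 and adjusted p = 0.00703). Trbj1-2, the next segment, had 48.5, 44.0, 44.1 and 45.4 CPM in SAS and 59.98, 62.1, 56.2 and 59.3 CPM in ANT libraries (log2 difference −0.38 with SE 0.09, adjusted p = 0.00575). For both, every SAS library lay below every ANT library, as 38.1% of all genes tested did not overlap. Both were called under each of 18 alternative settings, with adjusted p from 0.00036 to 0.0394 for Trbj1-1 and from 2.17e-05 to 0.0294 for Trbj1-2.

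The other 5 Trbj1 segments had smaller differences and were not called by edgeR with all libraries. Trbj1-3 had 63.3, 53.9, 57.8 and 59.8 CPM in SAS and 59.5, 65.5, 66.6 and 71.8 CPM in ANT (log2 difference −0.17, adjusted p = 0.208). Trbj1-5 had 63.4, 57.4, 53.9 and 57.3 CPM in SAS and 61.9, 65.0, 70.6 and 76.2 CPM in ANT (log2 difference −0.24, adjusted p = 0.089). Both overlapped between the clones, and Trbj1-5 was called without ANT replicates 1 and 3 (log2 difference −0.34, adjusted p = 0.0281). Trbj1-4, Trbj1-6 and Trbj1-7 had log2 differences of −0.11, −0.26 and −0.12 (adjusted p = 0.437, 0.0704 and 0.392). For Trbj1-6 every SAS library lay below every ANT library in TMM-scaled CPM, as 38.1% of all genes tested did not overlap, and DESeq2 called it. The gap was narrow, with 33.3 CPM in SAS replicate 6 and 33.8 CPM in ANT replicate 1. By library totals alone the clones overlapped: SAS replicate 6 had 1037 of 29503340 counts and ANT replicate 1 had 981 of 30230856. Whether the segments differ from one another in their fold change was not tested.

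Trbd1 itself was lower in SAS. It had 80.1, 59.1, 58.1 and 74.8 CPM in SAS replicates 1, 2, 3 and 6, against 108, 110, 80.1 and 82.8 CPM in ANT replicates 1, 3, 4 and 5, with SAS replicate 1 and ANT replicate 4 level (log2 difference −0.49 with SE 0.15, adjusted p = 0.0291). The call was lost without ANT replicates 1 or 3 or SAS replicates 2 or 3 (adjusted p 0.0727 to 0.0846), and with library-size scaling (adjusted p = 0.076). The high ANT libraries were the pair that stood apart from the other ANT libraries: without ANT replicates 1 and 3 the log2 difference was −0.26 (adjusted p = 0.193), and without ANT replicates 4 and 5 it was −0.70 (adjusted p = 0.00376). Trbd2 had far fewer counts, 100, 73, 76 and 76 in SAS and 66, 90, 58 and 73 in ANT, with a log2 difference of 0.07 and a 95% interval of −0.41 to 0.54 (adjusted p = 0.831).

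In the Trbj2 cluster Trbj2-7 stood at 180, 135, 74.5 and 178 CPM in SAS replicates 1, 2, 3 and 6, against 160, 141, 132 and 125 CPM in ANT replicates 1, 3, 4 and 5. SAS held both the lowest and the highest libraries, and the log2 difference was 0.02 with a 95% interval of −0.50 to 0.54 (adjusted p = 0.955). Among the alternatives, only the replicate block, which rests on replicates 1 and 3 alone, called Trbj2-7 (log2 difference −0.37, edgeR adjusted p = 0.0265). Trbj2-1, the first J segment after Trbd2, had 34.5, 30.3, 31.6 and 31.7 CPM in SAS and 46.4, 48.3, 37.6 and 32.8 CPM in ANT. It just missed the threshold (log2 difference −0.37 with SE 0.13, adjusted p = 0.0515) and was called under 5 alternatives: RLE scaling (adjusted p = 0.0492), DESeq2 (0.0304), the replicate block (0.00135), without ANT replicate 5 (0.0129) and without ANT replicates 4 and 5 (0.00129). Without ANT replicates 1 and 3 its log2 difference was −0.14 (adjusted p = 0.362). The remaining 5 segments averaged 3.33 to 10.7 CPM in either clone, and none was called by edgeR with all libraries, while DESeq2 called Trbj2-3 (edgeR log2 difference −0.33, adjusted p = 0.0781). Of the 14 J segments 12 had a negative log2 difference, and 11 to 14 under the alternative settings. It was 11 where libraries were scaled by their totals alone, and also 11 without SAS replicate 3. The median of the 14 was −0.19, against −0.0032 for all genes tested.

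Of the constant genes Trbc2 had most counts, and Trbc1 differed between the clones. Trbc1 had 526, 458, 487 and 514 CPM in SAS replicates 1, 2, 3 and 6, against 658, 679, 608 and 526 CPM in ANT replicates 1, 3, 4 and 5. ANT replicate 5 lay at the top of the SAS range and the other ANT libraries above it. The log2 difference was −0.32 (with SE 0.11 and adjusted p = 0.045), and it was called without ANT replicate 5 but not without any other single library (adjusted p 0.0601 to 0.125). Nor was it called with library-size scaling (adjusted p = 0.155) or without ANT replicates 1 and 3 (log2 difference −0.19, adjusted p = 0.222). Trbc2 had 4920, 3521, 2508 and 4730 CPM in SAS, against 5233, 4317, 4158 and 3095 CPM in ANT, with overlap (log2 difference −0.10, 95% interval −0.61 to 0.41, adjusted p = 0.762). Among the alternatives, only the replicate block, which rests on replicates 1 and 3 alone, called Trbc2 (log2 difference −0.44, edgeR adjusted p = 0.00709). Per kilobase of exon Trbc1 averaged 663 CPM in SAS and 825 CPM in ANT libraries, whereas Trbc2 averaged 5665 CPM in SAS and 6071 CPM in ANT.

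Trbc1 took 9.66%, 11.5%, 16.3% and 9.80% of constant gene counts in SAS replicates 1, 2, 3 and 6, against 11.2%, 13.6%, 12.8% and 14.5% in ANT replicates 1, 3, 4 and 5. SAS replicate 3 had the highest share of all, and the difference of −1.20 points did not pass (two-sided exact permutation p = 0.514, 0.771 adjusted over 3 shares). It was −2.69 points without SAS replicate 3 (exact permutation p = 0.114) and −1.81 without ANT replicate 1, against −0.486, −0.530 and −0.696 points without SAS replicate 1, SAS replicate 6 and ANT replicate 5. The permutation test with a library left out could not reach the threshold used for calls, whatever the shares. Wilson intervals were at most 0.246 points either way. The first exon of both constant genes has 375 bases with 1 difference, and 41.1% of the 50-base windows of Trbc1 also occur in Trbc2. How reads that fit both genes were counted is not given in the sources used here, so the split between them is uncertain.

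The rows with the most counts in each class varied more between libraries than the Trbj1 segments did. From the lowest to the highest library, Trbv26 ranged 1.92-fold, Trbc2 2.09-fold and Trbj2-7 2.41-fold in CPM, all 3 lowest in SAS replicate 3. The 7 Trbj1 segments ranged 1.25-fold to 1.78-fold, and Trbc1 1.48-fold. Trbd1, which lies beside the Trbj1 segments, ranged 1.89-fold, close to Trbv26. Trbc2 counts per 100 Trbv26 counts stayed between 140 and 163 over the 8 libraries, at 149, 140, 140 and 155 in SAS and 153, 163, 155 and 153 in ANT. Trbj2-7 counts per 100 Trbv26 counts were 5.44, 5.37, 4.17 and 5.83 in SAS and 4.68, 5.32, 4.95 and 6.21 in ANT. Trbc1 counts per 100 Trbv26 counts ran more widely, at 15.9, 18.2, 27.3 and 16.9 in SAS and 19.2, 25.6, 22.7 and 26.1 in ANT. Transcripts of the transgene and of the locus itself are not distinguished by these counts. The rows set side by side here were picked after their values were seen.

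**Figure D4:**
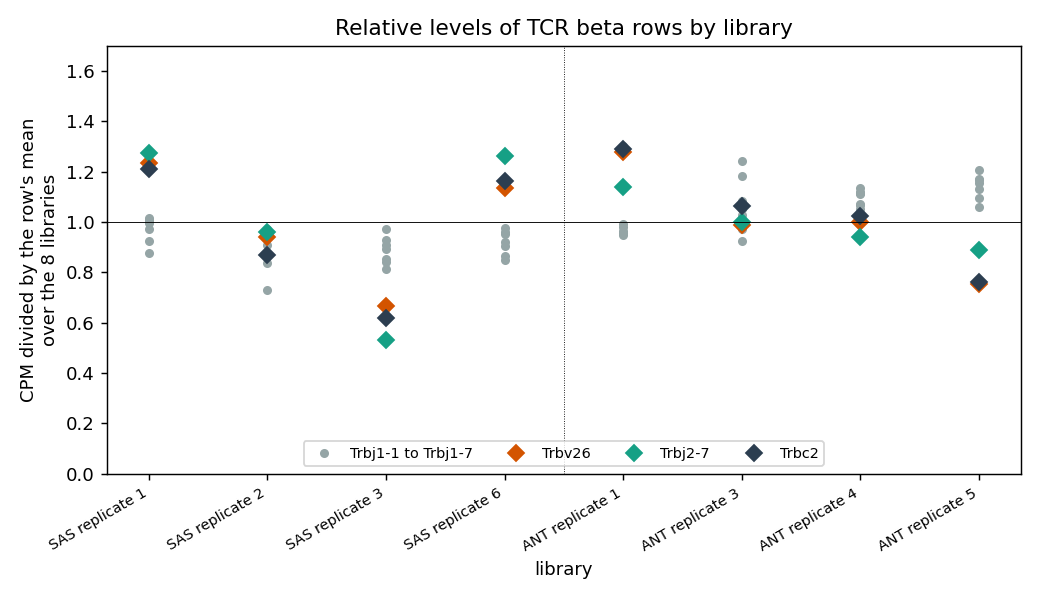
Level of each row in each library divided by its mean over the 8 libraries; diamonds are Trbv26, Trbj2-7 and Trbc2, grey points the 7 Trbj1 segments, with SAS libraries left of the dotted line and ANT libraries right of it. The diamonds lie close to each other and fall lowest in SAS replicate 3, where the grey points stay nearer to 1.

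All beta rows together made up 0.986%, 0.743%, 0.542% and 0.957% of library counts in SAS replicates 1, 2, 3 and 6, against 0.975%, 0.828%, 0.788% and 0.622% in ANT replicates 1, 3, 4 and 5. V segments gave 34.9% to 37.0% of these counts in SAS and 32.7% to 35.1% in ANT libraries. Constant genes gave 55.4% to 57.8% in SAS and 56.4% to 59.0% in ANT libraries, J segments 6.01% to 8.07% in SAS and 5.83% to 9.06% in ANT, and D segments 0.853% to 1.13% in SAS and 0.999% to 1.34% in ANT. Each class overlapped between the clones.

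In the fit across all genes, 28 of the 53 beta rows passed the low-count filter (10 V, 2 D, 14 J and 2 C), and 7 of the 28 (25%) were called, against 37.4% of the 12619 genes tested. Of the 28, 1 was higher in SAS (3.57%, against 19.8% of all genes tested) and 6 were lower (21.4%, against 17.7%). The clones did not overlap for 4 of the 28, all lower in SAS (14.3%, against 38.1% of all genes tested). The 28 rows had a median log2 difference of −0.16, with 21 negative and 7 positive. With libraries scaled by their totals alone, 17 of 28 were negative, and without SAS replicate 3, 17 of 29. The share called lay below that of all genes tested. The share lower in SAS lay a few points above that of all genes with TMM. It did not with libraries scaled by their totals alone, where 3 of 28 beta rows and 1666 of 12619 genes were lower in SAS. Among the 7 called rows Trbv31, a segment with few counts, had the largest log2 difference. Each of the 8 libraries, left out singly, lowered the count of 7. It was 2 without ANT replicate 3 and without SAS replicate 2, and 4 without ANT replicate 4, SAS replicate 1 or SAS replicate 3. It was 5 without ANT replicate 1 or SAS replicate 6, and 6 without ANT replicate 5. Fewer genes were also called in all, 3964 to 4700 with a library left out against 4725. Of all genes tested, 4127 of 12896 were called without ANT replicate 3 and 4291 of 12788 without SAS replicate 2. Without ANT replicates 1 and 3 the count of beta rows was 4 (Trbj1-1, Trbj1-2, Trbj1-5 and Trbv13-2), with 4779 of 13245 genes called. Without ANT replicates 4 and 5 it was 5 (Trbc1, Trbd1, Trbj1-1, Trbj1-2 and Trbj2-1), with 5913 of 13288 genes called. Trbj1-1 and Trbj1-2 were called in each of these fits.

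**Figure D5:**
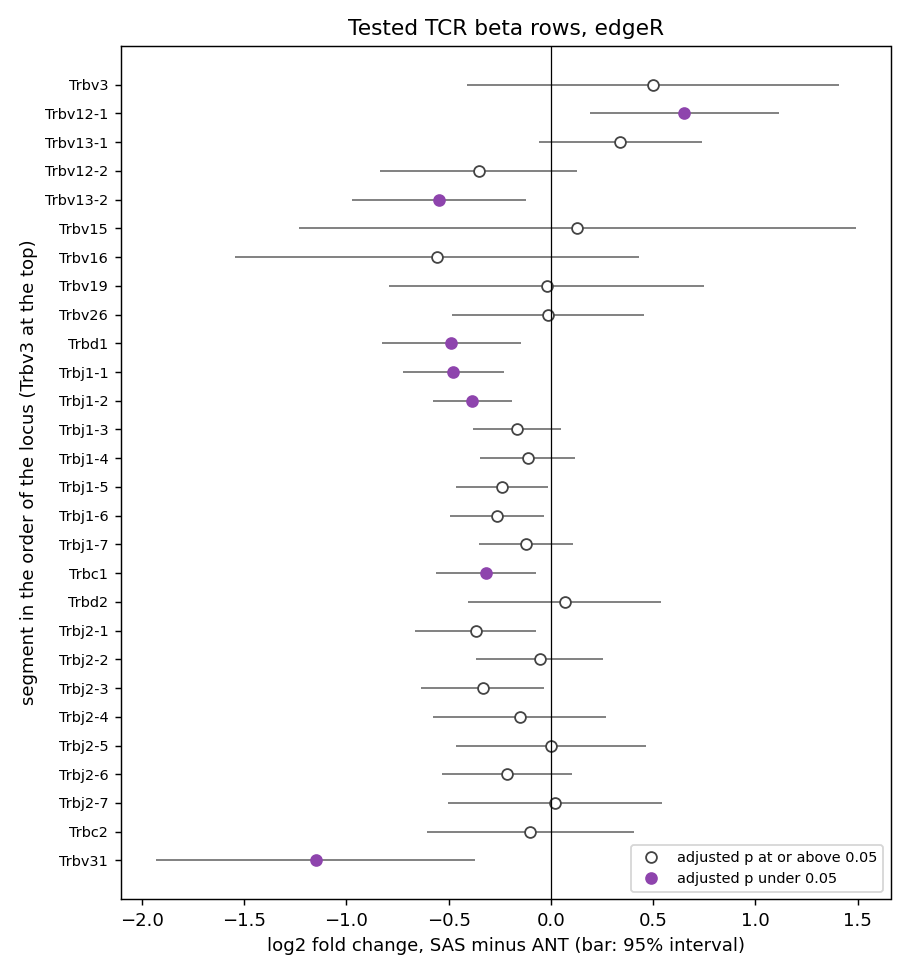
Log2 difference (SAS minus ANT) of the 28 tested beta rows in locus order, with 95% intervals; filled points passed an adjusted p of 0.05 in edgeR. The 7 filled points are Trbv12-1 on the right of 0, and Trbv13-2, Trbd1, Trbj1-1, Trbj1-2, Trbc1 and Trbv31 on its left.

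The genes that act with the beta chain were read from the same fit. Of 10 genes of the TCR complex, the pre-TCR and recombination, 7 were tested, 0 were higher and 2 lower in SAS, against 37.4% of all genes tested called in either direction, and 5 were not called; the median log2 difference was −0.27. Trac, the constant gene of the alpha chain that pairs with the beta chain, had 196, 197, 202 and 215 CPM in SAS, against 325, 306, 346 and 297 CPM in ANT (log2 difference −0.65 with SE 0.09, adjusted p = 0.000293). The progenitors lacked endogenous Tcra and were given the alpha chain by retrovirus. Transcripts of the retrovirus, of the disrupted locus and of recipient cells cannot be told apart in the Trac counts. Dntt, which adds untemplated bases at junctions, had 0.975, 2.03, 1.001 and 1.35 CPM in SAS and 80.4, 77.4, 72.9 and 67.6 CPM in ANT (log2 difference −5.80 with SE 0.22, adjusted p = 4.96e-08). For both genes, 2 of the 7 tested, every SAS library lay below every ANT library, as 38.1% of all genes tested did not overlap. The signalling chains Cd3d, Cd3g and Cd247 had log2 differences of −0.27, −0.30 and −0.19 (adjusted p = 0.189, 0.202 and 0.231), Cd3e of −0.02 and the co-receptor gene Cd4 of −0.05 (0.878 and 0.753). Rag1 and Rag2, the recombinase genes, had 2 and 0 counts in SAS and 0 and 0 in ANT, and Ptcra, the alpha partner of the beta chain in immature thymocytes, had 0 in SAS and 2 in ANT.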

How the data were processed

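The authors deposited raw counts per gene for 39056 Ensembl identifiers in 8 libraries. The submitters' processing notes name STAR, featureCounts and the build mm10; their versions, the annotation release, strand setting and the handling of multi-mapped reads are not given in the sources used here. Libraries were strand-specific TruSeq mRNA libraries per the labels' protocols. GENCODE M21 (the same build) supplied symbols and coordinates; 38872 identifiers matched without their version.

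edgeR 4.0.16 in R 4.3.3 was run on the counts of all 8 libraries: default low-count filter (12619 genes), TMM, robust quasi-likelihood test of SAS against ANT, no covariates, Benjamini-Hochberg adjustment, calls at 0.05. The SE is the absolute log2 fold change over the square root of F. The 3 shares were compared by exact permutation over libraries (SciPy 1.17.1). Scripts were tested on simulated data.

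Segments and lists were chosen with earlier results of these data known. Named are all C and D rows, the most abundant V row and the 8 next, the 2 most abundant J rows of each cluster, called rows and the list of TCR complex genes.

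Alternatives were RLE, library-size and TRA/TRB-free scaling, other filters (none, or 10 counts in 4 libraries), DESeq2 1.42.0, limma-voom (limma 3.58.1), a replicate block, and leaving out libraries. No 2 libraries of a clone agreed within sampling noise. 1 marker gene of the B cell list is not reported here.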

Additional observations from a re-analysis of the deposited data

Results flagged for a closer look

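In 122 groups of 4 libraries examined for a library far from the other 3, 6 were found; chance alone gives about 1 in 20. Trbv20 stood at 1.93 CPM in SAS replicate 3, with the other 3 SAS libraries at 0.280 to 0.335 CPM. Trbv19 stood at 0.739 CPM in SAS replicate 6, against 0.456 to 0.487 CPM in the others. The remaining 4 concerned SAS replicate 3, the library with the fewest beta counts, and share their counts. D segments gave 1.13% of its beta counts, against 0.853% to 0.870% in the other SAS libraries. Trbd1 had 3.25 counts per 100 Trbv26 counts there, against 2.34 to 2.46. The block from Trbv12-1 to Trbv13-2 held 94.0% of its V counts outside Trbv26, against 97.0% to 97.3%. V segments outside both Trbv26 and the block gave 0.268% of its V counts, against 0.118% to 0.140%, and Trbv20 is part of that sum.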

How the results depend on the processing

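Trbj1-1 and Trbj1-2 were called under all 18 alternatives, Trbd1 under 12, Trbv12-1 under 10, Trbv31 under 9, Trbc1 under 8 and Trbv13-2 under 7, and none of these 7 changed direction. The count of called beta rows, 7, was 4 with library-size scaling (1 higher and 3 lower in SAS). It was 4 without ANT replicates 1 and 3, and 2 to 6 with each library left out. The cause was not tested. All genes called, 4725 in the main fit, came to 4730 with library-size scaling (3064 higher and 1666 lower in SAS). They came to 4779 without ANT replicates 1 and 3, and to 3964 to 4700 with each library left out. DESeq2 called 9 beta rows and 5173 genes in all, and limma-voom 6 beta rows and 4685 genes. The Trbv26 share difference ran from −0.32 to 0.10 points with each library left out. No pairing of same-numbered replicates (1 and 3) is stated in the sources used here. Their deviations from the clone mean correlated by 0.293 and −0.121, and those of differently numbered libraries of the clones by −0.341 to 0.306. With the replicate block, which takes the difference from replicates 1 and 3 alone, 8 beta rows were called, 4 of them among the 7. The others were lower in SAS (log2 difference, edgeR adjusted p): Trbv12-2 (−0.67, 1.11e-05), Trbc2 (−0.44, 0.00709), Trbj2-1 (−0.52, 0.00135) and Trbj2-7 (−0.37, 0.0265). Of the TCR complex list 4 of 7 were called with the block, with 5798 of 12619 genes called in all. Without ANT replicates 4 and 5 it was 5 of 7, with 5913 of 13288. The main fit gave 2 of 7 and 4725 of 12619. Between the same-numbered replicates the share differences were −0.12 (Trbv26), 0.588 (Trbc1) and −1.16 points (Trbj2-7), and V counts outside Trbv26 differed by −18.8 CPM. Rows that were not called turned sign (log2 differences): with library-size scaling Trbc2 (0.0028), Trbv26 (0.0866) and Trbv19 (0.0766); without a filter Trbj2-7 (−0.0067); with limma-voom Trbv19 (0.0279) and Trbj2-7 (−0.0553); without ANT replicates 1 and 3 Trbc2 (0.11), Trbv26 (0.18) and Trbv19 (0.48); without ANT replicates 4 and 5 Trbd2 (−0.0869) and Trbj2-7 (−0.11). With single libraries left out Trbc2 ran from −0.23 to 0.0646, Trbv26 from −0.14 to 0.14, Trbv19 from −0.22 to 0.21, Trbd2 from −0.0296 to 0.21 and Trbj2-7 from −0.11 to 0.23. Low counts limit what can be said of the scarce V segments.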
